A study of Bos taurus with 8 samples.

Results

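The endometrium, the inner lining of the uterus, was profiled on day 7 after estrus in 4 cows whose uterine horns had received fluid without methylglyoxal, a reactive dicarbonyl formed as a by-product of glycolysis. These 4 samples are the 0 mM arrays among 8 arrays in all, chosen by their labelled dose, and the other 4, from cows given 5 mM, were not used here. Day 0 was the day of standing estrus, 25 mL was placed in each horn on day 1, and the biopsy came from the horn beside the ovary that bore the corpus luteum. All 4 cows therefore carried an intrauterine infusion, so the values describe infused and not untouched endometrium, and the labels used here give no breed or age. Each sample is a separate cow, named cow 1 to cow 4 after its replicate number. Total RNA was labelled with Cy3 and read on a one-colour Agilent bovine array with probes of 60 bases.

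On the seventh day of the cycle the corpus luteum secretes progesterone, and an embryo, if present, lies free in the uterine lumen and depends on what the uterine glands secrete. The lining holds a luminal and glandular epithelium, a stroma of fibroblasts, blood vessels and resident immune cells, and it lies on the smooth muscle of the myometrium. A biopsy samples these layers in proportions that can differ from cow to cow. Because tissue was measured in bulk, fewer cells of a type and less RNA per cell cannot be told apart in any value that follows.

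Levels are log2 processed intensities relative to the 75th percentile of each array, so that 0 is the 75th percentile of all spots, and a gene is represented by its brightest probe. An order of genes is thus an order of probe signals, which depend on the probe as well as on the transcript. A gene was called detected when its probe was well above background on all 4 arrays, and absent when none of its probes was well above background on any of them. Of 17427 named genes 12271 were detected, 1701 had a brightest probe above background on 1 to 3 arrays, and 3424 were absent, which is 19.6% of the named genes. The 75th percentile of intensity was 1456, 1181, 1070 and 1121 in cows 1 to 4, between 68.6% and 73.3% of spots were well above background, and no spot was saturated. Cows 2 and 3 were on the same slide, whereas cow 1 and cow 4 each had a slide of their own among these arrays, so for those 2 animals slide and cow cannot be told apart.

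Probe sequences matter most for 2 groups of genes, and stretches of 30 bases of these probes are given 5′ to 3′ as the array files hold them. The first group is the major histocompatibility complex, the highly polymorphic gene family whose proteins present peptides to T cells. There, probes that share a nearly identical stretch of 30 bases read alike in some cases and at very different levels in others. The stretches lie at different offsets within the probes, and the rest of the 60 bases was not compared. Capitals mark bases that differ from the first sequence of each set, and positions are counted from 1 at the 5′ end of the stretch. For the DQA chain of class II, the probe of HLA-DQA2, so named in the files, differed from that of BOLA-DQA3 by C6T and G19A:
BOLA-DQA3: ctgatcccatgtcaccacggaagcaataaa
HLA-DQA2: ctgatTccatgtcaccacAgaagcaataaa
Both were well above background in cow 1 alone. BOLA-DQA3 read 1.52 in cow 1 and -9.13, -8.82 and -7.51 in cows 2 to 4, and this HLA-DQA2 probe, in row 16 at the edge of the array, read 1.29, -8.27, -7.55 and -7.26. The pattern held for that probe only, since 4 other HLA-DQA2 probes were well above background in all 4 cows, with means of -0.64, -0.91, -1.37 and -1.93. The remaining HLA-DQA2 probe, in row 70, was well above background on 3 arrays. It was lowest in cow 1, at -6.89, -4.33, -4.09 and -2.63 in cows 1 to 4. A further probe of BOLA-DQA3, from another stretch, was not well above background in any of the 4 cows, with a mean of -8.65. BOLA-DQA2, another DQA chain, was detected in all 4 at 0.71, 2.28, 1.86 and 0.98.

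In class I, whose genes encode the heavy chains that pair with B2M, 4 probes shared a stretch with at most 2 differences from the first, G16C in the third probe of JSP.1 and G11C and A18C in the probe of BOLA. Only the third probe had a position in the file header's build, HGSC Btau_3.1, at chr23:28599390-28600011 on the minus strand.
JSP.1, probes 1 and 2: aggtgaaaaaggagggaattatatccaggc
JSP.1, probe 3: aggtgaaaaaggaggCaattatatccaggc
BOLA: aggtgaaaaaCgagggaCttatatccaggc
The BOLA probe read -0.54, -7.30, 0.58 and 0.81, and in cow 2 it was not well above background. JSP.1 probe 3 read -0.31, -0.55, -2.54 and -0.08, lowest in cow 3. Probe 1 of JSP.1 read 0.15, 1.43, -0.29 and 0.70, whereas probe 2, which holds the same stretch at another offset, read 0.34, -0.28, -0.47 and 2.0. So the cow with the highest reading was cow 2 for probe 1 and cow 4 for probes 2 and 3 and for BOLA. Which of the near-identical copies each of these spots reports is uncertain, and sequence differences between the cows were not measured here.

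A second class I stretch was shared by a further 4 probes. The first probe of BOLA (chr23:28655800-28655859, minus strand) and the probe of BOLA-NC1 (chr23:28483940-28483999, minus strand) held the same 30 bases. The probe of JSP.1 (chr23:28598893-28598952, minus strand) differed by C4T, G9A, G16A and G24A, and a second BOLA probe (chr23:28598867-28598925, minus strand) by C4T, G16A, G24A and A29C.
BOLA, first probe: cttcatatgcactgagtaatgatgtcttat
BOLA-NC1: cttcatatgcactgagtaatgatgtcttat
JSP.1: cttTatatAcactgaAtaatgatAtcttat
BOLA, second probe: cttTatatgcactgaAtaatgatAtcttCt
The first BOLA probe read 6.44, 6.12, 6.14 and 6.04, BOLA-NC1 read 5.19, 5.43, 5.45 and 4.29, and JSP.1 read 5.38, 5.50, 5.10 and 5.01. These 3 were bright in every cow. The second BOLA probe read 2.72 and 2.68 in cows 1 and 4 and -4.99 and -6.48 in cows 2 and 3, the reading of cow 3 being not well above background. Both BOLA probes lay in the outermost columns of the array, a position taken up further on.

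The second group is genes with large differences between cows for which the array carries only 1 probe, so that no other sequence bears on the reading. The first 30 bases of 3 of these probes are given, with the position of the whole probe on HGSC Btau_3.1 being chr7:17081429-17081488 (plus strand) for FUT6, chr18:45878845-45878904 (minus) for IGFLR1 and chr1:81867116-81867175 (plus) for MASP1.
FUT6: actggtttgtgtttactgctgctgttgatg
IGFLR1: tgctgtccaaacttggctcatcaggggctt
MASP1: ttcactcctctgtaaggttcctctgagctg
Their levels are given with the variable genes.

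The highest signals came from the translation machinery, and they were nearly the same in all 4 cows. RPS3, a protein of the small ribosomal subunit, was highest at 6.65 ± 0.16 (SD, n = 4), with 6.72, 6.55, 6.50 and 6.84 in cows 1 to 4. Of the 30 genes with the highest mean, 16 encoded cytosolic ribosomal proteins, FAU, which makes one fused to a ubiquitin-like protein, being counted with them. Among the 100 highest genes 48 bore a ribosomal protein symbol. EEF1A1, which brings aminoacyl-tRNA to the ribosome, stood at 6.39 ± 0.17. TPT1, the translationally controlled tumour protein, stood at 6.50 ± 0.05.

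The other members of the 30 included genes of iron storage, mitochondria, chaperones, antigen presentation and the matrix, besides others such as the histone gene H3-3A and TMSB4X, which binds monomeric actin. FTH1, the heavy chain of ferritin, read 6.63, 6.51, 6.42 and 6.56. COX3 and COX2, subunits of cytochrome c oxidase, averaged 6.39 ± 0.12 and 6.23 ± 0.21, and the chaperone HSP90AB1 6.32 ± 0.18. Genes of the extracellular matrix were among them as well. MGP, an inhibitor of calcification, averaged 6.21 ± 0.14 and COL18A1, a basement membrane collagen, 6.20 ± 0.25. SPARC, a collagen-binding matrix protein, read 5.98, 5.69, 6.57 and 6.21, higher in cows 3 and 4 than in cows 1 and 2 on its brightest probe, whereas a second probe read 5.33, 5.03, 5.15 and 5.05, highest in cow 1. BOLA, the class I heavy chain, averaged 6.50 ± 0.28. Its partner B2M averaged 6.14 ± 0.46 with 5.51 in cow 1, but that probe lay at the edge of the array, and a second B2M probe read 5.13, 5.38, 5.21 and 5.20.

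**Figure D1:**
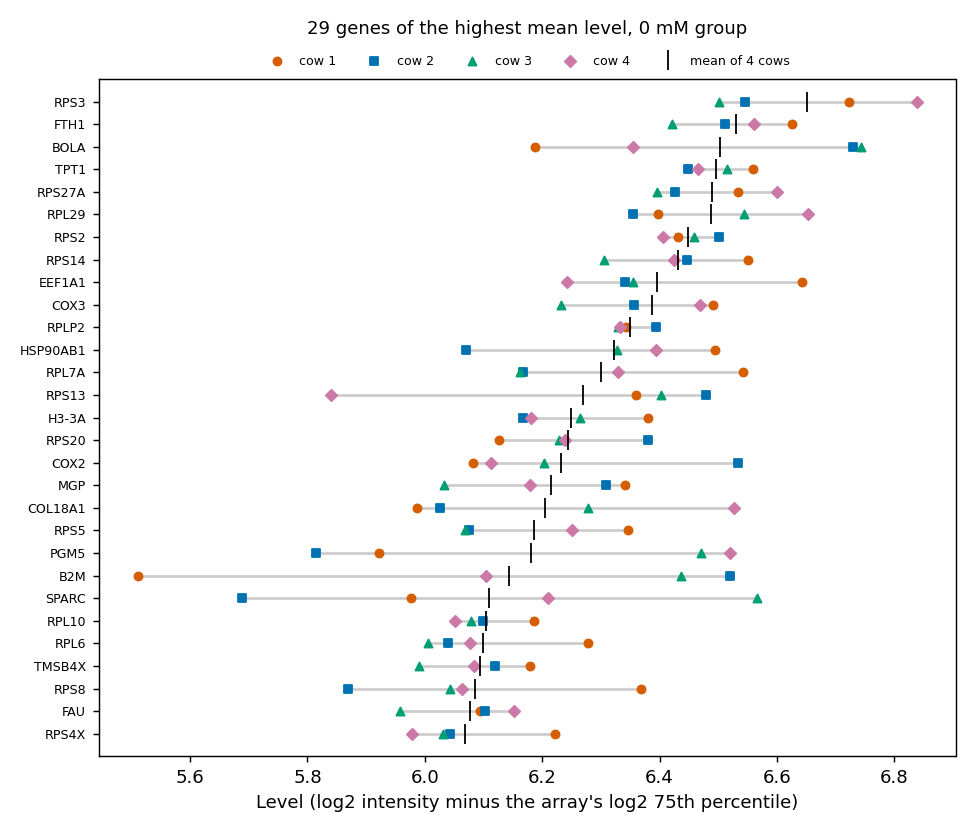
Level of 29 of the 30 genes with the highest mean in the 0 mM group (x axis, log2 intensity minus the array's log2 75th percentile); coloured symbols are the 4 cows and the black bar is their mean. The genes lie between 6.07 and 6.65 on average, and for RPS2 and RPLP2 the 4 cows nearly coincide, with SDs of 0.04 and 0.03.

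The order within the 30 rests on the choice of the brightest probe. When the probes of a gene were averaged instead, 16 of the 30 remained among the highest 30. Without the edge of the array 28 remained.

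Detected genes had a median level of 0.03, and 90% of them lay between -5.01 and 3.88. Their median SD over the 4 cows was 0.26, 5% had an SD under 0.08, and 5% had one above 0.89. Where the array repeats a probe in 4 spots, the median SD among spots of one array was between 0.10 and 0.12, against a median SD over cows of 0.19 for the 44 such probes detected. The smallest spreads belonged to FAM136A, at 1.50 with an SD of 0.0038, TEX261, RPS7, CCDC134 and POLR3D. Over cytosolic ribosomal protein genes the median SD was 0.09, and over the enzymes that remove methylglyoxal and other aldehydes it was 0.16. An SD above 1, a spread that puts the highest and lowest cow more than 2-fold apart, was found for 457 genes, 3.72% of those detected.

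**Figure D2:**
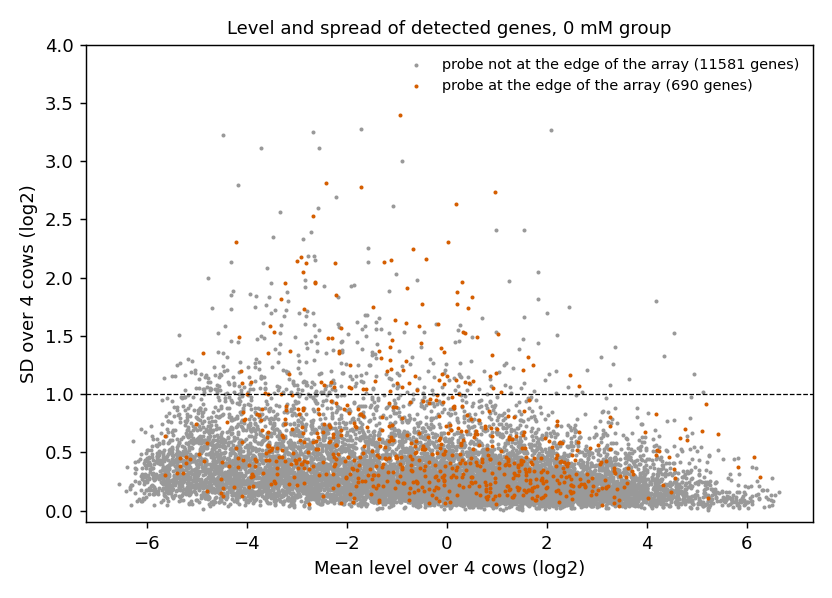
Mean level (x axis, log2) and SD over the 4 cows (y axis, log2) of the 12271 detected genes; the dashed line is an SD of 1, and orange points are the 690 genes whose probe lies at the edge of the array. Large SDs occur at all but the highest levels, and orange points are more frequent above the line than below it.

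Position on the array moved with a part of this spread. The array has 532 rows and 85 columns, and in its last 6 rows 64.1% of 145 detected probes had an SD above 1, against 2.47% of 27086 probes away from the edge. In those rows the median probe stood 1.21 above its own median over cows in cow 1 and 1.03 above it in cow 4, and 1.24 and 1.02 below it in cows 2 and 3, the 2 cows that shared a slide. Rows 1 to 6 had 25.0% of 168 probes above the same SD, with cow 4 lowest there by 0.60. After these values were seen, the outer 17 rows at each end and the outermost column on each side were called the edge. It holds 7.51% of all probes, the brightest probe of 5.62% of detected genes, and that of 103 of the 457 genes with an SD above 1. Leaving its spots out gave 362 genes with an SD above 1 among 12035 detected, or 3.01%.

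**Figure D3:**
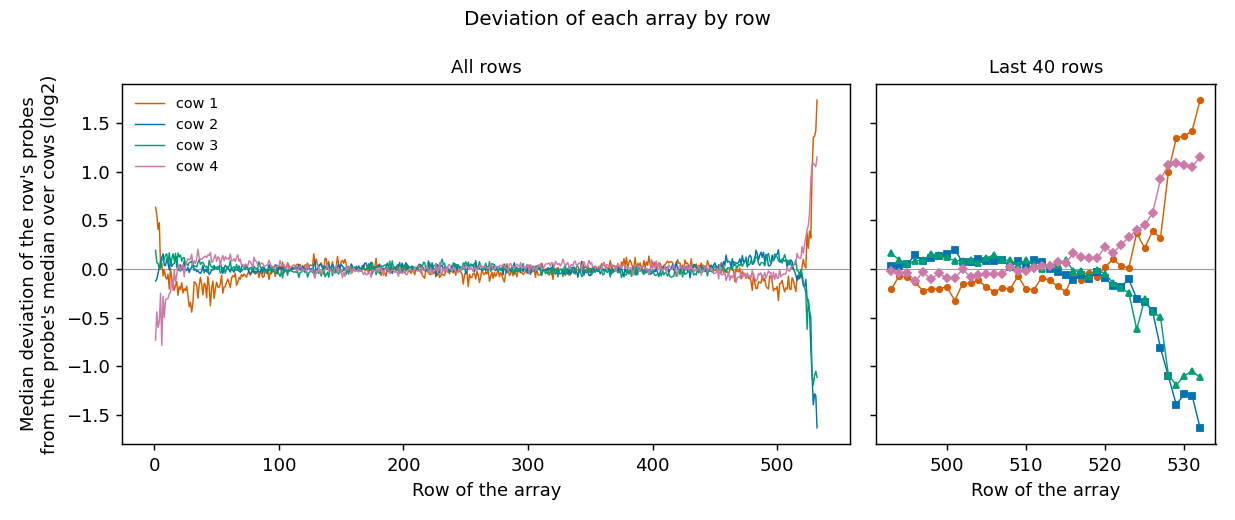
Median deviation of the probes in each row of the array from the probe's own median over the 4 cows (y axis, log2) against row number, for all rows and for the last 40. In row 532 cow 1 lies at 1.74 and cow 4 at 1.15, while cows 2 and 3 lie at -1.64 and -1.12.

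Genes with probes in both places show the size of this. DDX6, an RNA helicase of mRNA decay, read 3.11, -2.20, -1.88 and 1.68 from a probe in row 528 and -0.62, -0.63, -0.63 and -0.80 from one in row 192. KLHL28 read 2.14, -1.53, -2.37 and 1.85 in row 530 and -2.63, -2.41, -2.31 and -2.47 in row 70. GLO1, the glyoxalase that takes up the adduct of methylglyoxal and glutathione, had its brightest probe in row 1. That probe read 2.51, 0.65, 1.1 and -0.34, an SD of 1.18, while the next probes read 0.96, 0.24, 0.91 and 0.36 and -1.87, -2.48, -1.58 and -2.40, with SDs of 0.37 and 0.43. Among genes with an SD above 1 and a second detected probe, that probe gave the same highest and the same lowest cow for 8 of 51 when the first probe lay at the edge and for 86 of 112 when it did not. Its median SD was 0.29 in the former and 1.14 in the latter. Over all 6691 genes with a second detected probe, 32.9% had the same highest and lowest cow. The genes that follow are therefore given with the edge left out, and 25 of the 40 most variable genes over all spots remained among the 40 without it. Smaller deviations by row remained in the rows kept. In cow 1 the median probe stood at -0.44 in row 30 and -0.33 in row 501, against -0.03 over all probes away from the edge.

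RSPO1, a secreted protein that strengthens Wnt signalling, varied most among the genes detected in all 4 cows. It read 3.13 in cow 1 and -4.11, -3.07 and -2.79 in cows 2 to 4, a range of 7.24 or 151.5-fold. A second RSPO1 probe had the same highest cow, with -3.09 in cow 1 and readings not well above background of -9.21, -8.76 and -9.10 in the others. FUT6, which adds fucose to glycans, was lowest in cow 1, at -2.74, with 3.03, 4.46 and 3.56 in cows 2 to 4. IGFLR1, a receptor for IGF-like proteins, divided the cows in another way, at -5.73 and -5.22 in cows 1 and 4 and -0.19 and 0.44 in cows 2 and 3. Cows 2 and 3 shared a slide, so slide and cow cannot be told apart in this division. MASP1, a protease of the lectin pathway of complement, read 0.27 in cow 1 and between -6.68 and -5.19 in the others. THBS4, a matrix glycoprotein, read -5.38 in cow 2 and 0.60, 0.91 and 0.30 in cows 1, 3 and 4.

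Cow 1 was the highest of the 4 in many of these genes. Among the 362 genes with an SD above 1, it was highest in 151, cow 2 in 76, cow 3 in 81 and cow 4 in 54. Over all 12035 detected genes, whatever their spread, 26.0% were highest in cow 1, 25.4% in cow 2, 25.4% in cow 3 and 23.1% in cow 4. On the low side cow 1 was lowest in 106 of the 362, cow 2 in 104, cow 3 in 95 and cow 4 in 57. Of all detected genes 34.6% were lowest in cow 1, 21.6% in cow 2, 22.7% in cow 3 and 21.2% in cow 4. In 92 genes cow 1 stood alone above the others, by a gap larger than all other gaps together, against 25, 10 and 8 for cows 2, 3 and 4. It stood alone below the others in 36 genes, against 17, 14 and 10 for cows 2, 3 and 4. Without cow 1, 319 genes had an SD above 1 over all spots, and 20 of the 40 most variable remained. A pair of cows 3 and 4 stood above the other pair in 30 genes, and a pair of cows 1 and 2 in 15.

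**Figure D4:**
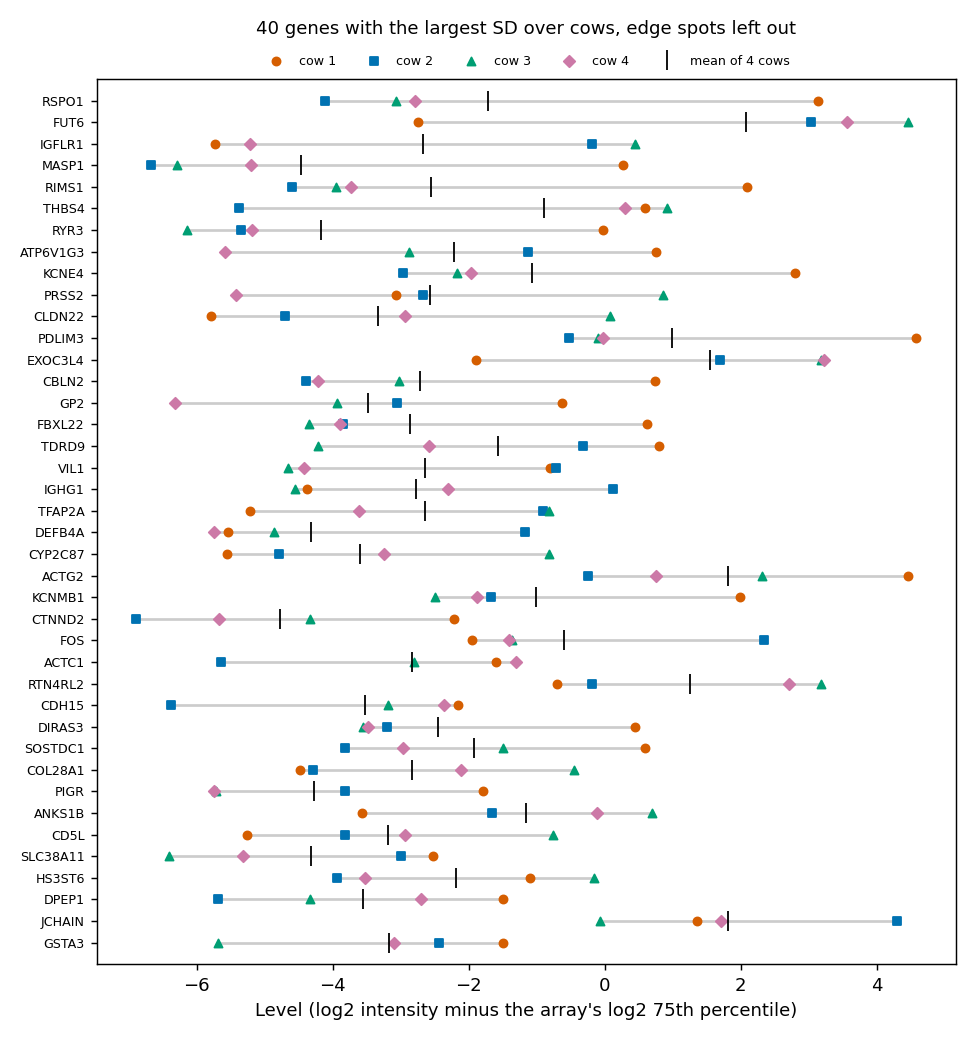
Level of the 40 detected genes with the largest SD over the 4 cows, edge spots left out (x axis, log2 intensity minus the array's log2 75th percentile); symbols are cows, black bars means. Cow 1 lies far to the right for RSPO1, RIMS1, KCNE4 and PDLIM3, cow 2 for FOS and JCHAIN, and cow 3 for PRSS2 and CLDN22.

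Several genes high in cow 1 are known from contractile cells. PDLIM3, a protein of the muscle Z line, read 4.58 in cow 1 and -0.52, -0.10 and -0.02 in the others, and a second probe was highest in cow 1 as well, at 3.55, -1.75, -1.31 and -1.49. KCNMB1, the accessory subunit of the smooth muscle potassium channel, read 1.99, -1.67, -2.50 and -1.87. ACTG2, the actin of visceral smooth muscle, read 4.46, -0.25, 2.31 and 0.75. KCNE4, an accessory subunit of potassium channels, read 2.79, -2.96, -2.17 and -1.97, and RYR3, a calcium release channel, -0.03, -5.35, -6.15 and -5.18. RIMS1, a protein of the presynaptic active zone, read 2.08, -4.60, -3.96 and -3.73, and CBLN2, a synapse organiser, 0.75, -4.39, -3.02 and -4.21.

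The smooth muscle list showed the same cow, apart from CASQ2, a member not detected on all 4 arrays. CASQ2 was well above background on 3 arrays and read -6.55, -6.80, -5.60 and -5.82, highest in cow 3. All 15 members detected away from the edge were highest in cow 1, against 26.0% of all detected genes, and 12 of them had an SD above 1, against 3.01%. ACTG2 and KCNMB1, named above for their spread, are among the 15. The list was also chosen with earlier results of these data known, so its counts are no independent support. For 12 of the 15 both the brightest and a second detected probe lay away from the edge, and the second was highest in cow 1 for 11. The mean over these 15, each taken relative to its own mean, was 1.78 in cow 1 and -0.94, -0.42 and -0.42 in cows 2 to 4. ACTA2, the smooth muscle actin, read 6.34, 3.53, 5.24 and 4.69, the myosin heavy chain MYH11 5.34, 2.26, 2.48 and 3.34, and calponin, CNN1, 6.17, 3.01, 4.11 and 4.08. Desmin, DES, read 3.84, 0.44, 1.49 and 1.51, but its second probe was lowest in cow 1, at 0.94, 1.35, 1.79 and 1.74. TAGLN, transgelin, had its brightest probe in row 532, at 4.84, -1.53, -0.11 and 0.68, and its inner probe read 1.41, -2.61, -1.57 and -1.85, cow 1 being highest on both. The amount of muscle in the biopsies was not measured, and its part in the genes high in cow 1 was not tested. Cow 1 also had a slide of its own among these arrays, so slide and cow cannot be told apart here.

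Other genes were high in cow 2. FOS, an immediate early transcription factor, read 2.35 in cow 2 and -1.96, -1.37 and -1.40 in cows 1, 3 and 4, and its other 2 probes were highest in cow 2 as well. EGR1, another immediate early gene, read -0.39, 2.40, -0.18 and -0.83. Of 18 immediate early genes detected away from the edge, 10 were highest in cow 2, against 25.4% of all detected genes. The others were highest in cow 1 (4 genes), cow 3 (3 genes) and cow 4 (1 gene). An SD above 1 was found for 2 of the 18, against 3.01% of all detected genes. JCHAIN, which joins polymeric immunoglobulin, read 4.29 in cow 2 against 1.35, -0.07 and 1.70, and IGHG1, an immunoglobulin heavy chain, 0.13 against -4.37, -4.55 and -2.31. All 7 genes of B and plasma cells detected away from the edge, JCHAIN among them, were highest in cow 2, against 25.4% of all detected genes. This list too was chosen with earlier results of these data known. Of these 7, 5 had an SD above 1, against 3.01% of all detected genes. Their mean deviation was 1.36 in cow 2 and between -0.73 and -0.29 elsewhere. DEFB4A, a beta-defensin, read -1.17 in cow 2 and -5.53, -4.86 and -5.74 in the others, with a second probe at -1.53 in cow 2 and at most -5.53 in the others. The chemokine CCL2 read 0.40 in cow 2 and -1.72, -1.24 and -2.33 in the rest, and 18 of 24 detected cytokine and chemokine genes were highest in cow 2, where 25.4% of all detected genes were. Of 25 detected interferon-stimulated genes, 19 were highest in cow 2 and 18 lowest in cow 1, against 25.4% and 34.6% of all detected genes. Examples are ISG15, the ubiquitin-like modifier, at 0.18, 2.07, 1.13 and 1.09, and MX1, an antiviral GTPase, at 0.90, 2.52, 1.98 and 1.72. Of the 25 only 1 had an SD above 1, near the 3.01% of all detected genes.

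Cell cycle genes formed a further pattern, with 23 of 26 highest in cow 3 and 19 of 26 lowest in cow 2, against 25.4% and 21.6% of all detected genes. CDC20, an activator of the anaphase-promoting complex, read -3.54, -5.52, -2.83 and -3.12. RRM2, a subunit of ribonucleotide reductase, read -3.25, -4.40, -1.69 and -2.96. Their mean deviation was 0.58 in cow 3 and -0.67 in cow 2, and 3 of the 26 had an SD above 1, against 3.01% of all detected genes.

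Genes of macrophages and dendritic cells were lowest in cow 1 in 14 of 15, against 34.6% of all detected genes. C1QA, a chain of complement component C1q that macrophages make, read 2.01, 2.93, 3.99 and 3.55. None of the 15 had an SD above 1, against 3.01% of all detected genes. Endothelial genes were lowest in cow 1 in 11 of 12 and antigen presentation genes in 14 of 18, beside the same 34.6%. PSMB9, a subunit of the immunoproteasome, read 2.02, 3.46, 3.28 and 3.14. Granzyme B, GZMB, a protease of cytotoxic lymphocytes, read -1.38, 0.62, 1.36 and 1.30. Of 16 T and NK cell genes detected away from the edge 9 were lowest in cow 1, beside the same 34.6%, and 5 in cow 3. In that list 9 genes were highest in cow 2 and only 1 in cow 3, where GZMB was highest. Over all detected genes 25.4% were highest in cow 2 and 25.4% in cow 3. Since all levels are relative to the array's 75th percentile, and the smooth muscle list was 1.78 above its mean in cow 1, the 2 facts stand side by side, and how they are related was not tested.

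**Figure D5:**
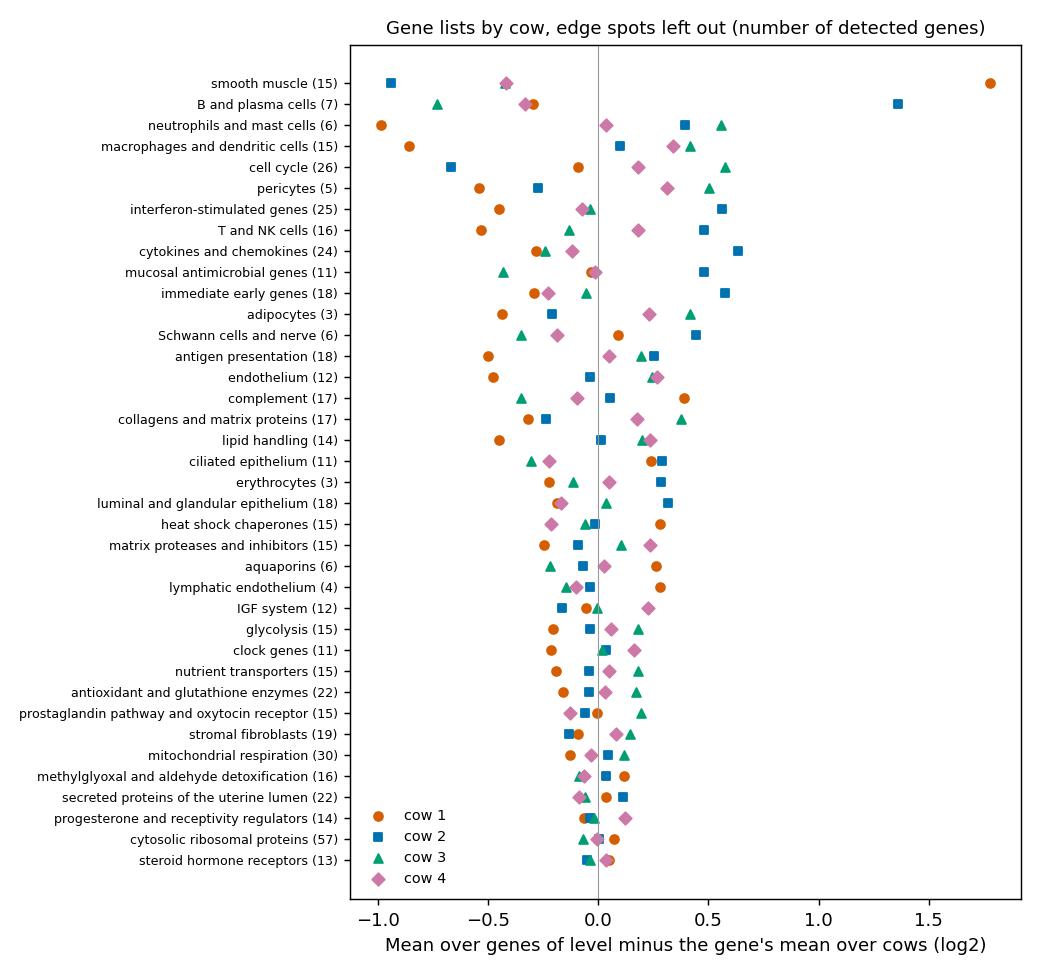
Mean over the detected genes of each list of the level minus the gene's own mean over the 4 cows (x axis, log2), edge spots left out; the number of genes stands in parentheses, and lists are ordered by the spread of the cows. Smooth muscle lies at 1.78 in cow 1, B and plasma cells at 1.36 in cow 2, and the ribosomal protein and steroid receptor lists lie within 0.08 of 0 in every cow.

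Further genes of large spread divided the cows in other ways. PIGR, the receptor that carries polymeric immunoglobulin across the epithelium, read -1.79, -3.82, -5.72 and -5.75, and a second probe had -2.22, -4.21, -5.15 and -5.90. VIL1, which bundles actin in microvilli, read -0.81 and -0.71 in cows 1 and 2 and -4.66 and -4.42 in cows 3 and 4. GP2, a membrane glycoprotein, read -0.63, -3.06, -3.94 and -6.31, and GSTA3, a glutathione transferase, -1.49, -2.44, -5.69 and -3.10. PRSS2, a trypsinogen, was highest in cow 3, at 0.86, against -3.07, -2.67 and -5.43. CD5L, a protein that macrophages secrete, was highest in cow 3 as well, at -0.76 against -5.26, -3.81 and -2.93. EXOC3L4 read -1.90, 1.69, 3.18 and 3.22 on its brightest probe, whereas a second probe was high in cow 3 alone, at -0.23 against -4.11, -5.07 and -5.08, so that 2 probes of this gene disagreed on cows 2 and 4.

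Some genes were above background in only a part of the cows. In BOLA-DQA3, whose probe is printed above, cow 1 was at least 313-fold above the log2 mean of the other 3. For that bound each of the 3 was set to the lowest signal called well above background on its array. The bound against a single cow can be smaller. CHRDL2, an extracellular inhibitor of bone morphogenetic proteins, read 1.70 in cow 1 and was not well above background in the others. By the same bound on the mean, it was at least 354-fold higher in cow 1. RGS17, a regulator of G protein signalling, was by that bound at least 121-fold and IL17B, a cytokine, at least 111-fold higher in cow 1. PLA2G2F, a secreted phospholipase, was not well above background in cow 2 only, at -7.54, and read -0.61, -0.21 and -0.69 in cows 1, 3 and 4. SLC26A3, a chloride and bicarbonate exchanger, was not well above background in cow 1 alone. CCDC196 was above background only in cow 2, at -1.47, and the serotonin receptor HTR1A only in cow 4, at -2.53. Of the 15 such genes with the widest range, 9 were above background in cow 1 alone. The share above background in cow 1 alone among all such genes was not counted, so that number has no background beside it.

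Most genes that mark the cell types of endometrium were detected in all 4 cows, with exceptions. VWF of endothelium was above background in 2 cows, FOXJ1 of ciliated cells and CDH16 of epithelium in 3, and the ciliary dynein DNAH5 in 1. PROX1 of lymphatic endothelium, NOTCH3 of pericytes, CD28 of T cells and ITGAM of myeloid cells were absent. EPCAM, an epithelial adhesion molecule, read 4.68, 4.83, 4.50 and 4.33, and the keratin KRT8 3.89, 3.97, 4.16 and 3.56. Of 19 epithelial genes on the array none was absent. In the stroma, decorin, DCN, read 5.33, 5.63, 5.86 and 5.92, vimentin, VIM, 5.15, 5.33, 5.37 and 5.35, and the collagen chain COL1A2 5.23, 5.26, 5.54 and 5.40, and none of 19 fibroblast genes was absent. Endothelial, ciliated and smooth muscle lists had no absent gene either, of 13, 17 and 16 genes. For blood cells more genes were missing. 4 of 10 erythrocyte genes were absent, among them EPB42, a protein of the red cell membrane, and 4 of 13 neutrophil and mast cell genes, CXCR1, CXCR2, CATHL1 and CATHL4. Over all 14 cell type lists 9.63% of 187 entries were absent, against 19.6% of named genes.

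The regulators of the progesterone phase were detected at very different levels. The progesterone receptor, PGR, read -1.23, -1.24, -1.10 and -1.37, and the estrogen receptor ESR1 -4.67, -4.75, -5.14 and -4.86, both with little spread. PGRMC1, a progesterone-binding membrane protein, read 3.77, 3.70, 3.66 and 3.77. The median SD of the 13 detected genes of the receptor list was 0.20. MSX1, a homeobox factor of the receptive uterus, read 5.31, 4.73, 5.06 and 4.91, GATA2, a transcription factor, 4.06, 4.31, 4.30 and 4.41, and IHH, the epithelial hedgehog ligand, 4.23, 4.21, 3.70 and 4.12. HOXA10 rested at 3.11, 3.47, 3.76 and 3.88. LIF, the cytokine needed for implantation in mice, and WNT7B were absent. The oxytocin receptor, OXTR, whose signal drives luteolytic prostaglandin release, read -1.58, -3.11, -0.92 and -2.62, and its second probe had the same order of cows at -4.07, -6.21, -3.43 and -4.99.

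Genes of secretion into the lumen spanned a wide range, with a median level of 1.41 over the 25 on the array. SERPINA14, a progesterone-induced uterine serpin, read -1.07, -3.40, -2.16 and -3.22 from a probe in row 4, at the edge. Among the brightest members, CLU, clusterin, averaged 5.92, TIMP2, an inhibitor of matrix proteases, 5.78, GRP, gastrin-releasing peptide, 5.05, PENK, proenkephalin, 4.91, and LTF, lactoferrin, 4.86. Of these, PENK and LTF had the widest ranges, PENK at 4.01, 4.80, 5.29 and 5.52 and LTF at 5.49, 4.27, 4.63 and 5.05. IGF2, the fetal-type insulin-like growth factor, read 5.58, 5.79, 5.64 and 5.86. IGFBP5, one of the proteins that bind it, read 1.33 in cow 1 and -1.06, -2.24 and -1.43 in the others. In the prostaglandin pathway AKR1B1, an aldose reductase able to make prostaglandin F, read 5.38, 5.37, 5.17 and 5.25, and PTGER3, a receptor of prostaglandin E, -0.37, -4.02, -3.15 and -3.70, highest in cow 1 on its second probe too. The prostacyclin receptor PTGIR and the exporter ABCC4 were absent.

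None of 17 genes of methylglyoxal and aldehyde detoxification was absent. HAGH, the glyoxalase that hydrolyses the product of GLO1, read 2.61, 2.79, 2.78 and 2.81. AGER, the receptor that binds glycated proteins, read -1.11, -1.34, -1.47 and -1.37. ALDH2, the mitochondrial aldehyde dehydrogenase, averaged 5.07. The SD above 1 in this list belonged to GLO1 alone, from its probe in row 1, and none remained when the edge was left out.

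Absent genes were read mostly at the floor of the array, with a median level of -8.42 and with 90% of them between -8.96 and -7.26. Olfactory receptors made up a large share. Of 550 genes whose symbols mark them as such 498 were absent, and of 14 taste receptors 13. Of 124 entries in lists for other tissues 59 were absent, or 47.6%. In the lists of functions the share was 3.50% of 514 entries. Those lists include cytosolic ribosomal protein, respiration and glycolysis genes, none of which was absent. Over all named genes the share was 19.6%, and it stands beside each count of absent genes given here. The Y-linked genes SRY, DDX3Y, EIF2S3Y, USP9Y and EIF1AY were absent, with means between -8.98 and -8.35. Steroid-making enzymes and gonadotropin receptors of the ovary were absent in 5 of 10, CYP11A1, CYP19A1, HSD3B1, LHCGR and FSHR. The pregnancy-associated glycoproteins PAG1, PAG11 and PAG12 and the placental lactogen CSH2, products of the conceptus, were absent. In the list of trophoblast and conceptus 6 of 13 genes were. The caseins CSN1S1 and CSN3 were absent, and 3 of 6 milk protein genes were. A further casein, CSN2, was detected in all 4 cows on its brightest and on a second probe, which read -4.17, -4.00, -4.33 and -3.98. The neuronal enzymes GAD1 and GAD2 and the intestinal genes FABP2 and CDX2 were absent too.

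Some genes named after other tissues were nevertheless detected. APOA1, the apolipoprotein of high-density lipoprotein, read 2.03, 2.89, 2.63 and 2.62, AMY2B, an amylase, 2.74, 2.14, 1.75 and 2.19, and SYT1, a synaptic vesicle calcium sensor, 1.77, 0.20, 1.60 and 0.92. SLC17A7, a vesicular glutamate transporter, read 0.63, 1.01, 1.14 and 1.50, and POMC, the hormone precursor, 0.16, 0.09, -0.08 and -0.51. ACTC1, the actin of cardiac muscle, read -1.60, -5.64, -2.80 and -1.30. Absence was a matter of probe as well. Of the 3424 absent genes 2682 had 1 probe only, beside 7311 of all 17427 named genes. A gene was absent only if all its probes were, which is met more easily with 1 probe. PIGR, detected on its first 2 probes, was not well above background on the third.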

How the data were processed

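Endometrium of 4 cows was hybridised in 1 colour, per the labels. The deposited intensity values were background-corrected by Feature Extraction, for which the file headers name version 11.5.1.1 and the submitters' processing notes version 10.5.1.1. Per the file headers, these are intensity values on a linear scale. The deposited value table holds log2 values, whose differences between these cows were within 0.0043 of those used here, and it served as an alternative.

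Control and outlier-marked spots were left out, log2 intensities averaged over the spots of a probe, and each array's log2 75th percentile subtracted (Python 3.11.15, pandas 2.3.3). Alternatives used R 4.3.3 and limma 3.58.1. Symbols were given to 34979 of 43653 probes: 22174 through an accession of the RefSeq table (ARS-UCD2.0), 11028 by name or gene ID, 413 by synonym, and 1364 as the file gives them. Probe positions are on HGSC Btau_3.1, per the file headers. With 1 group there was no test between groups, and the number of arrays limits the precision. Values rest on the spread among 4 cows.

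Named were the 30 highest genes, the 40 of largest SD, 15 above background in only some cows with the widest range, the 10 of smallest SD, and per list up to 3 highest, 3 most variable and absent members, besides GLO1, HAGH, AGER, PGR, ESR1 and OXTR. Other genes with values, such as KLHL28 and DDX6, were chosen after their values were seen, as were members of lists given as examples. The 49 lists and the members were chosen with earlier results of these data known. The steps were tested on simulated data. In groups of 4 a cow was listed as apart where its gap to the nearest cow exceeded 0.829 of the range, the 95% critical value. Alternatives were the normalization, normexp background correction, the detection filter, averaging over probes, the deposited table, leaving out each cow, and leaving out the edge, which was chosen after seeing the data. Unnamed probes and LOC symbols are not named here, and a few further genes and 1 probe sequence are not reported here.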

Additional observations from a re-analysis of the deposited data

Results flagged for a closer look

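In 7 of 122 genes and list means examined, 1 cow lay far from the other 3, by a gap that made up most of the whole range of the 4. Chance passes about 1 in 20 such groups, so 7 is near what chance alone gives. RIMS1, RYR3, PDLIM3, FBXL22 and THBS4 were also chosen from the same values for their large spread, and the gaps lend them no support. Cow 1 stood apart above the rest in RIMS1, at 2.08, RYR3, at -0.029, PDLIM3, at 4.58, and FBXL22, at 0.62. Cow 1 stood apart below in HAGH, at 2.61, although the 4 readings of HAGH spanned only 0.20. It did so too in the mean of the lipid handling genes, at -0.41 relative to the genes' own means, the 1 list of 46 for which this was found. Cow 2 stood apart below in THBS4, at -5.38.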

How the results depend on the processing

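No paired analysis was possible because the results come from no test and 1 group. The 457 genes with an SD above 1 numbered 451 after quantile normalization, 450 after a median shift, 456 in the deposited table, 390 with probes averaged and 362 without the edge, but 275 after normexp background correction. They numbered 1087 when being above background on 1 array sufficed and 1185 with no filter, since probes at the floor then enter. Of the 40 most variable genes 11 were shared under either of those looser filters, 25 without the edge, and 20 to 34 when 1 cow was left out, 20 being without cow 1. Leaving out a cow gave 319 (without cow 1) to 560 genes with an SD above 1, a median SD of 0.22 to 0.25, 28 to 29 of the 30 highest genes, and 3484 to 3657 absent genes. Leaving out cow 1 moved the SD of 28 of 55 named genes by over 1.5 times, and normexp did so for 22 of 55. Levels moved by at least 1 SD in 18 of 36 genes with normexp and in 32 of 36 with probes averaged. Averaging probes kept 16 of the 30 highest, and normexp 23. Absent genes numbered 1031 when a signal significantly above background, a laxer mark of the scanner software, replaced well above background. Levels under about -6.5 lie near the lowest signal called well above background, so differences below it could not be resolved.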
